A study of Mus musculus with 4 samples.

Results

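This section compares 2 groups of effector regulatory T cell libraries that differed in the measured level of Maf: 2 Maf-high libraries against 2 Maf-low libraries, together all 4 libraries of the series. The groups were chosen by measured Maf and not by genotype label. A library was placed in the Maf-high group above 100 CPM (counts scaled to library size) and in the Maf-low group below 5 CPM. The 2 Maf-high libraries were those labelled wt 1 and flox 1, and the 2 Maf-low libraries were those labelled wt 2 and flox 2. The genotype labels therefore disagree with Maf in 2 of the 4 libraries, wt 2 and flox 1, and each library is named by its label throughout.

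All 4 libraries came from effector regulatory T cells of Peyer's patches, the lymphoid follicles of the small intestine wall, sorted by flow cytometry as CD4+ FoxP3+ CD62L- cells. About 40000 cells were sorted per RNA sample. The mice were 13 weeks old, on a C57BL/6 background at backcross generation 5, and were kept free of specific pathogens including Helicobacter hepaticus. Every mouse carried FoxP3-YFP-cre, a Cre driven by Foxp3 together with yellow fluorescent protein, which so acts in FoxP3-expressing cells. The labelled wt libraries are given as Maf+/+ and the labelled flox libraries as Mafflox/flox, so each group here holds 1 library of each labelled genotype. The part of Maf that the floxed alleles lose is not given in the sources used here. Labels do not say whether libraries came from separate animals or from pools, so the p-values cover the spread among these 4 samples and no more, and it may be technical.

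Maf encodes c-Maf, a large basic leucine zipper transcription factor that binds Maf recognition elements in DNA. In T cells c-Maf is known as an activator of Il10 and Il21. In the intestine it is known for its part in the regulatory T cells that restrain responses to the microbiota. Follicular regulatory T cells of germinal centres, which are abundant in Peyer's patches, also express it.

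Values of single genes are given in the order labelled wt 1 and labelled flox 1, which are Maf-high, then labelled wt 2 and labelled flox 2, which are Maf-low. Maf had 3071 and 2975 counts in the Maf-high libraries and 40 and 15 counts in the Maf-low libraries. As CPM these were 149 and 122 against 1.98 and 0.725. No library lay between 1.98 and 122 CPM, so the thresholds of 5 and 100 CPM cut through an empty range. These values set the groups and carry no test. The counts have exact 95% Poisson intervals of 2963 to 3182, 2869 to 3084, 28.6 to 54.5 and 8.4 to 24.7, which cover counting error only. Maf lies on chromosome 8 from 115682942 to 115707794 on the minus strand (mm10). Of the 15 tested genes within 2 Mb of it on either side, 0 passed the edgeR quasi-likelihood test, and 0 of them had an unadjusted p under 0.05.

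The deposited table of normalized values bears on the same grouping. It was made with counts adjusted to a common library size, and these adjusted counts depend on which libraries are treated as 1 group. Recomputed with the groups set by the number in the title, 100% of its 42472 values matched within a relative error of 1e-06. Recomputed with the genotype labels as groups, 3.25% matched. The numbers in the titles coincide with the Maf level. A replicate field in the labels instead gives 1 to both libraries labelled wt and 2 to both labelled flox.

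The libraries held between 19368745 and 24687897 gene counts. Sorting markers were at similar levels in both groups: Cd4, the co-receptor of helper T cells, had 983, 920, 998 and 973 CPM, and Cd3e, a chain of the T cell receptor complex, had 1370, 1239, 1250 and 1273 CPM. Transcripts of other cell types were present in every library. Summed over 15 tested myeloid and dendritic cell markers the libraries had 99.4, 214, 163 and 148 CPM, and over 19 epithelial markers 452, 809, 793 and 623 CPM. The library labelled wt 1 was the lowest of the 4 for 8 of the 15 myeloid and 15 of the 19 epithelial markers, so it stood apart in these within the Maf-high group. In bulk RNA, fewer cells of a type and less RNA per cell cannot be told apart.

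Of 13021 tested genes other than Maf, 235 (1.8%) were called, meaning a Benjamini-Hochberg adjusted p under 0.05 in edgeR's quasi-likelihood test with 2 libraries against 2. Of these, 183 (1.41%) were lower and 52 (0.399%) higher in the Maf-low libraries. An unadjusted p under 0.05 in the same test was found for 1767 of the 13021 genes. The counts given for gene lists below stand against these shares. The biological coefficient of variation, the spread between libraries of a group beyond counting error, was 0.194. Lower genes also had the larger changes: among called genes, 63 were at least 4-fold lower and 8 at least 4-fold higher, and 36 and 5 were past 8-fold. The median log2 fold change was -1.22 over the called lower genes, 0.98 over the called higher genes and 0.01 over all tested genes. Groups that do not overlap are common with 2 libraries each, at 22.5% of tested genes lower and 22.7% higher in Maf-low, so separation alone says little. Leaving out 1 library moved the count of called genes widely. It was 45 without labelled wt 1, 115 without labelled flox 1, 524 without labelled wt 2 and 503 without labelled flox 2, in fits where the lone library of a group is assumed to vary like the others. Of the 235 genes, 38 were called without each library in turn.

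**Figure D1:**
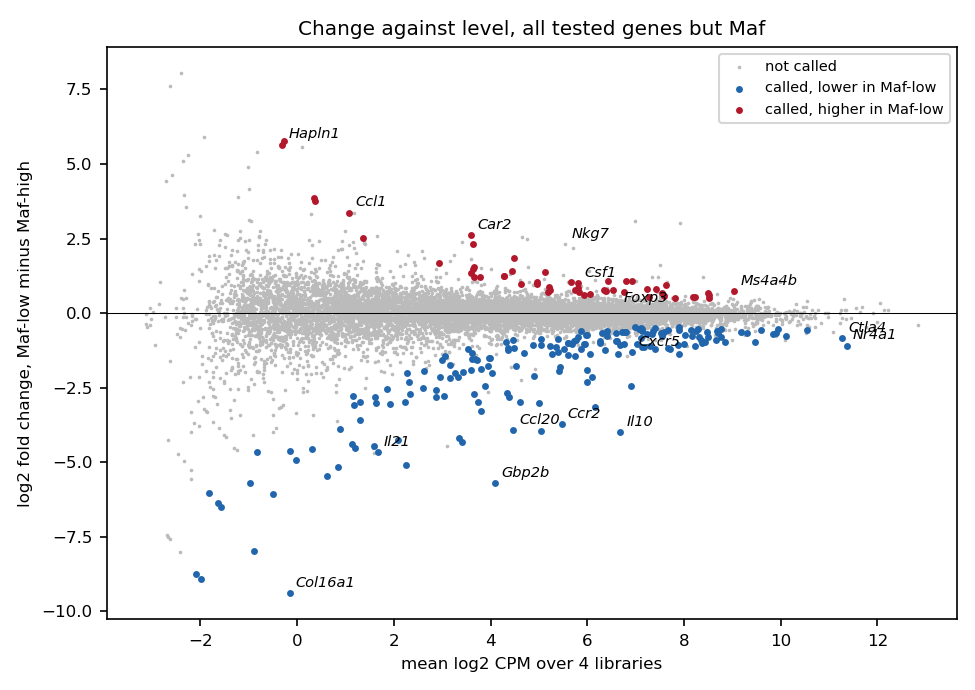
Log2 fold change, Maf-low minus Maf-high (vertical axis), against the mean log2 CPM over the 4 libraries (horizontal axis), 1 point per tested gene except Maf. The 183 called genes lower in Maf-low (blue) extend to larger changes than the 52 called genes higher in Maf-low (red), and grey points were not called.

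The comparison can also be made within each label, as labelled wt 2 minus labelled wt 1 and labelled flox 2 minus labelled flox 1. These 2 differences share no library. They moved the same way for all 235 called genes, which the test favours by its construction. Past 2-fold in both labels, 270 tested genes were lower and 162 higher in the Maf-low library. Past 2-fold in opposite directions, 216 were higher in the labelled wt pair and lower in the labelled flox pair, and 33 were the reverse. Across the 9066 genes whose mean log2 CPM was 3 or more, Pearson's r of the 2 differences was 0.52. It is a description across genes, which are not independent replicates.

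**Figure D2:**
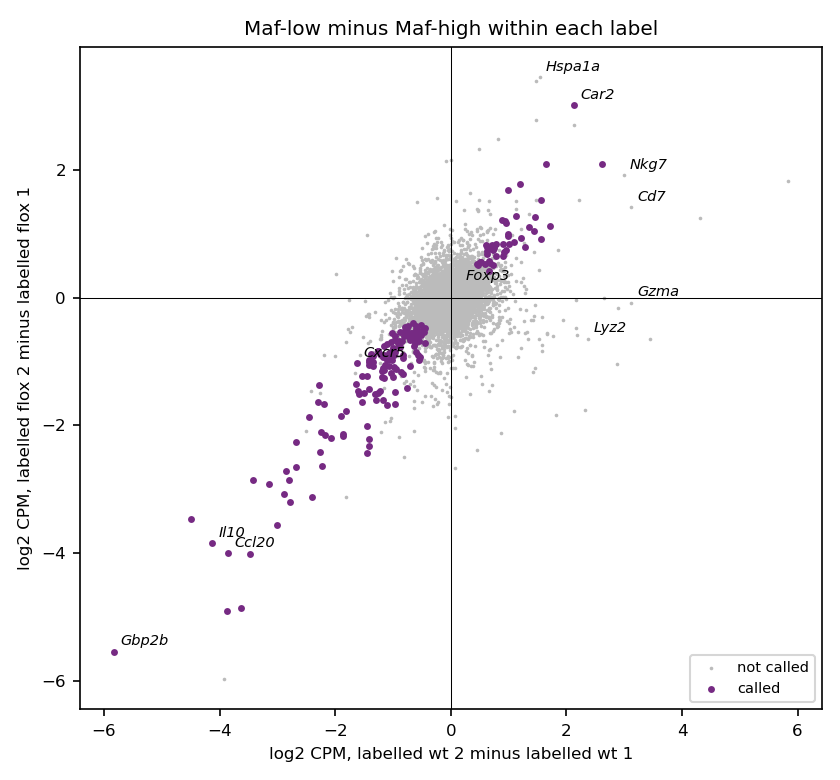
Difference in log2 CPM between the Maf-low and the Maf-high library within the labelled wt pair (horizontal axis) and within the labelled flox pair (vertical axis), for the 9066 genes other than Maf whose mean log2 CPM was 3 or more. Called genes (purple) lie along the diagonal, with Il10 and Gbp2b far down in both pairs, while Gzma and Lyz2 are higher along the horizontal axis and not along the vertical axis.

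The cytokine Il10 and the chemokine Ccl20 had the clearest losses among secreted signals. Il10, an anti-inflammatory cytokine of regulatory T cells, had 429 and 385 CPM in the Maf-high libraries against 24.5 and 26.8 in the Maf-low libraries. The group means were 407 ± 31.1 and 25.7 ± 1.67 CPM (SD, n = 2 libraries each), a 15.9-fold difference with a log2 fold change of -3.99 (SE 0.11, adjusted p = 6.94e-05). Ccl20, a chemokine that attracts CCR6-bearing cells to the dome of Peyer's patches, had 86.4 and 85.4 CPM against 5.93 and 5.32. It fell by 3.93 on the log2 scale (SE 0.13, adjusted p = 0.000159). For both genes the 2 libraries within a group lay close together and the groups were far apart, in both labels, and both were called without each library in turn.

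Il21, a cytokine of follicular T cells that acts on B cells, had 19 and 14.5 CPM in the Maf-high libraries and 0.346 and 0.967 in the Maf-low libraries, the latter from 7 and 20 counts. The ratio of high to low was 54.9 in the labelled wt pair (95% counting interval 26.4 to 138) and 14.9 in the labelled flox pair (9.53 to 24.8). In the fit its log2 fold change was -4.65 (SE 0.46, adjusted p = 0.00874), and the call ended without labelled wt 1, where the adjusted p was 0.063. Il17a, which encodes interleukin 17A, had 3.5, 4.59, 0.593 and 0.919 CPM and did not pass (adjusted p = 0.0814). Il1rn, the antagonist of the interleukin 1 receptor, had 10.5 and 11.8 CPM against 1.88 and 2.56 and was lower by test (log2 fold change -2.33, adjusted p = 0.0197), though not without labelled wt 1 (0.108) or labelled flox 1 (0.0851).

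A few secreted signals were higher in the Maf-low libraries. Csf1, the growth factor of macrophages, had 40.8 and 39 CPM against 80.7 and 78.2 and rose by 0.99 on the log2 scale (SE 0.10, adjusted p = 0.00874). Ccl1, the ligand of CCR8, had 0.583 and 0.696 CPM against 6.67 and 6.72, with non-overlapping groups and little difference within each (log2 fold change 3.37, adjusted p = 0.0146). Tnfsf10, the death ligand TRAIL, had 48.4 and 41.3 CPM against 74.9 and 71.4 (log2 fold change 0.71, adjusted p = 0.0451). Without labelled wt 1 the adjusted p was 0.0813 for Csf1 and 0.147 for Tnfsf10, and without labelled flox 1 it was 0.0534 and 0.233, so those calls ended. The call of Ccl1 ended without labelled wt 1 (0.0963). Over the list of 25 tested cytokines and TNF family ligands, 2 were lower (Il10 and Il21) and 2 higher (Csf1 and Tnfsf10), with a median log2 fold change of 0.09.

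Chemokine receptors changed in both directions. Ccr2, a receptor for inflammatory chemokines on chromosome 9, was lower, as was its neighbour Ccr1. Ccr2 had 165 and 159 CPM in the Maf-high libraries against 14.7 and 9.87 in the Maf-low libraries, a 13.2-fold difference (log2 fold change -3.72, SE 0.19, adjusted p = 0.00116). Ccr1, another receptor of the same cluster, had 13.2 and 16.2 CPM against 0.396 and 0.919 from 8 and 19 counts (adjusted p = 0.00809). Both were called without each library in turn. Ccr3, also in that cluster, had 2.48, 2.5, 0 and 0.193 CPM and did not pass (adjusted p = 0.102).

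Cxcr5, the receptor that guides cells into B cell follicles, had 202 and 181 CPM against 65.9 and 89.4. It fell by 1.30 on the log2 scale (SE 0.16, adjusted p = 0.017), with both Maf-low libraries well below both Maf-high libraries. Ackr3, a scavenging receptor for CXCL12, had 121 and 118 counts in the Maf-high libraries and 2 and 1 counts in the Maf-low libraries, a ratio of 59.5 in the labelled wt pair with a counting interval of 16.1 to 497 (adjusted p = 0.00832). Cxcr3, a receptor of type 1 cells, went the other way with 69.1 and 56.7 CPM against 114 and 101 (log2 fold change 0.77, SE 0.13, adjusted p = 0.044). The receptor most abundant in this list, Ccr7, had 1275, 1053, 708 and 1211 CPM, with overlapping groups (adjusted p = 0.77). In all, 6 of 23 tested chemokines and chemokine receptors were lower and 2 higher, with a median log2 fold change of -0.45. Without labelled wt 1 the calls of Cxcr5 (adjusted p = 0.109) and Ackr3 (0.063) ended, and that of Cxcr3 without labelled wt 1 (0.106) or labelled flox 1 (0.176) did too.

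Among the lists on T cell states and functions, the type 17 genes had the lowest median, at -1.15 over 15 members, against 0.01 over all genes. Of them 4 were lower, among them Il23r, Il1r1 and Ccl20, and 0 were higher, and 9 had an unadjusted p under 0.05. Il23r, a chain of the interleukin 23 receptor, had 8.41 and 9.46 CPM in the Maf-high libraries against 1.09 and 0.387 in the Maf-low libraries (log2 fold change -3.59, SE 0.51, adjusted p = 0.027). Il1r1, the signalling receptor for interleukin 1, had 14.3 and 8.68 CPM against 1.93 and 0.822 (log2 fold change -3.06, SE 0.49, adjusted p = 0.0421). Both are low in absolute counts, with 8 to 39 in the Maf-low libraries. Without labelled wt 1 their adjusted p was 0.114 and 0.215, and without labelled flox 1 that of Il23r was 0.0804. Further members had an unadjusted p under 0.05 but were not called. Rora, Ahr and Ccr6, also on the list, did not pass, with adjusted p from 0.834 to 0.924. Rora had 202, 272, 237 and 204 CPM, Ahr 363, 318, 279 and 357, and Ccr6, the receptor for CCL20, 67, 76.1, 95.7 and 57.8. Il23r and Il17a are also on the list of 8 gamma delta T cell and innate lymphoid markers, of which 1, Il23r, was lower and 0 were higher (median 0.14).

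Proximal promoters of 3 lower genes are shown because they differ in whether they hold the core of a Maf recognition element. The letters searched were TGCTGAC and, on the other strand, GTCAGCA, in windows from 250 bases before to 50 bases after the transcription start (RefSeq, GRCm38.p6). Capitals mark a match, and each sequence reads in the direction of the gene. Il23r and Ackr3 each hold 1 match, and Ccl20 holds none in this window. Il23r lies at chr6:67491806-67492105 (minus strand), Ackr3 at chr1:90203730-90204029 (plus strand) and Ccl20 at chr1:83116516-83116815 (plus strand).
Il23r: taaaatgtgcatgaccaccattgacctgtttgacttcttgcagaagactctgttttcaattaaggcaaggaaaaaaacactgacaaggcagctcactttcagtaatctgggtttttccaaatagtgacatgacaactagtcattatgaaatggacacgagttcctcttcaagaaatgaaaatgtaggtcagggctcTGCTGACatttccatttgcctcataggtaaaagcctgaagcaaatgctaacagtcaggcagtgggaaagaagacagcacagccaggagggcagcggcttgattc
Ackr3: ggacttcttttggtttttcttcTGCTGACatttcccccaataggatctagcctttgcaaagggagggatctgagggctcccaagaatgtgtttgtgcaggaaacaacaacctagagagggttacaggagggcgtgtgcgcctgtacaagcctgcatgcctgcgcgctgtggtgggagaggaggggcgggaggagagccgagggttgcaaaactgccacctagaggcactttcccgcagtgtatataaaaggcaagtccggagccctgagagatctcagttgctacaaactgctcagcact
Ccl20: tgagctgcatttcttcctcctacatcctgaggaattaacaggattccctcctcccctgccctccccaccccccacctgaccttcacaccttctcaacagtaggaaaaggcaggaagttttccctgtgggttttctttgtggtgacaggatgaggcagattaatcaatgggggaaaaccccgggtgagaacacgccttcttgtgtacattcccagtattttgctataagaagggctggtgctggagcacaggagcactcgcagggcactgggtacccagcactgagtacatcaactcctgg

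Few genes held a match, called or not. Of the called lower genes with a promoter in the table, 7 of 133 (5.26%) held one, and of the called higher genes 1 of 36 (2.78%). The shares were 4.53% over 9819 tested genes and 5.28% over all 27025 genes of the table, where a gene counts if any of its windows matches. The other called lower genes with a match were Gja1, Nfia, Irak3, Slamf1 and Ddx3x, and the called higher gene was 2900026A02Rik. The windows of Il21, Gbp2b and Ccr2 held none. A match is a description of the letters in the window, and sites outside it were not searched.

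Among genes of follicular T cells, of 24 tested, 8 were lower and 0 higher, 18 had an unadjusted p under 0.05, and the median log2 fold change was -0.64. Members of this list had been seen to differ within labels before it was drawn up, so its count is a description. Pou2af1, a transcriptional co-activator known best from B cells and also present in follicular T cells, had 32.8 and 33.3 CPM against 6.18 and 3.82 (log2 fold change -2.72, SE 0.25, adjusted p = 0.00674). Sh2d1a, which encodes the adaptor SAP needed for contacts between T and B cells, had 233 and 231 CPM against 114 and 102 (log2 fold change -1.10, SE 0.09, adjusted p = 0.00483). Both were called without each library in turn. Ascl2, a transcription factor of early follicular cells, had 86 and 100 counts in the Maf-high libraries and 3 and 0 in the Maf-low libraries, a ratio of 28.2 in the labelled wt pair (interval 9.33 to 139, adjusted p = 0.038). Tox2, a transcription factor of the same programme, had 323 and 348 CPM against 217 and 187 (adjusted p = 0.0256), and Angptl2, a secreted glycoprotein, had 171 and 122 against 35.6 and 22.9 (adjusted p = 0.042). The calls of Ascl2 (adjusted p = 0.174), Tox2 (0.127) and Angptl2 (0.0888) ended without labelled wt 1, as did those of Ascl2 (0.102) and Tox2 (0.117) without labelled flox 1 and that of Angptl2 (0.0594) without labelled flox 2. Bcl6, the factor that defines follicular T cells, had 260, 253, 111 and 162 CPM and Pdcd1, the inhibitory receptor PD-1, 720, 676, 312 and 441. Neither passed (adjusted p = 0.089 and 0.0804), although both Maf-low libraries were below both Maf-high libraries. Summed over 18 tested B and plasma cell markers, the libraries had 378, 562, 417 and 397 CPM, and 0 of the 18 were called (median -0.53). The highest sum was in labelled flox 1, and the remaining Maf-high library was the lowest.

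**Figure D3:**
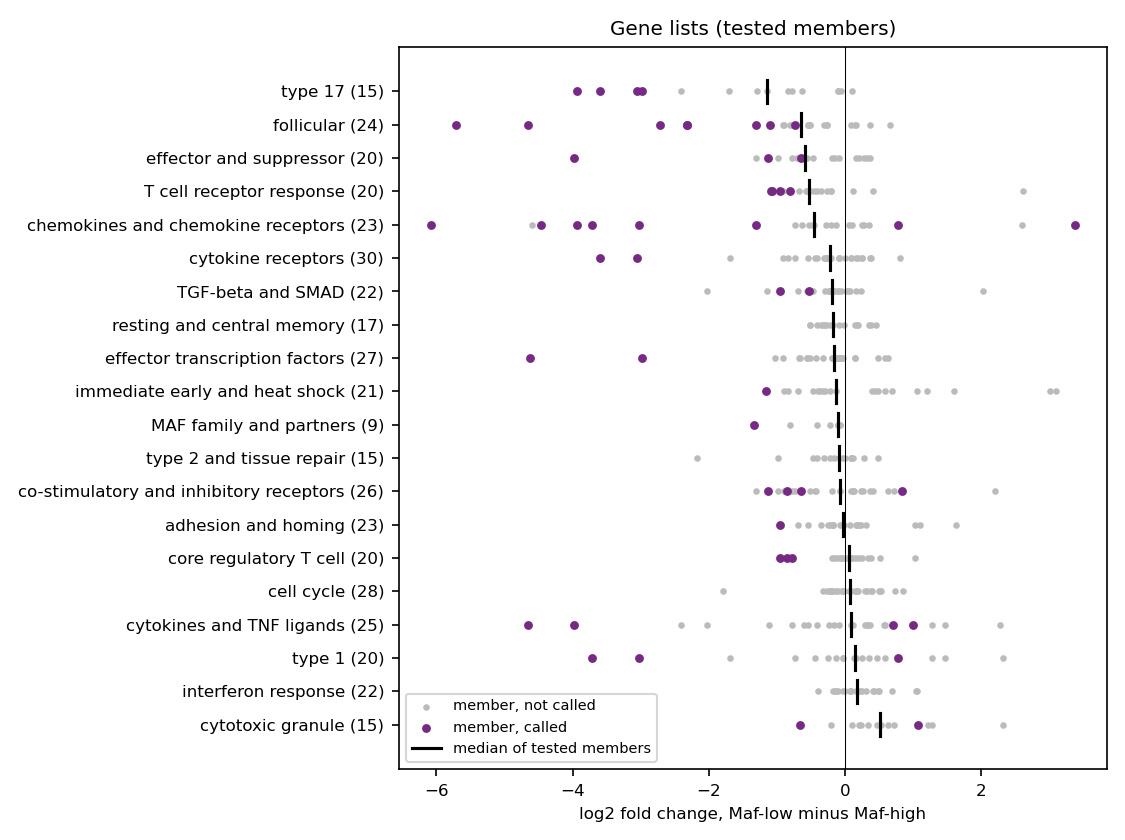
Log2 fold change, Maf-low minus Maf-high (horizontal axis), of each tested member of the gene lists on T cell states and functions, Maf left out. Purple points are called genes, grey points are not called, black bars are list medians, and list sizes stand in brackets. The type 17 list has the lowest median, -1.15, and the cytotoxic granule list the highest, 0.51.

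Among transcription factors outside those lists, Mafg and Zeb2 were lower. Mafg encodes a small Maf protein, which lacks an activation domain and pairs with other basic leucine zipper proteins. It had 43.8 and 38.3 CPM against 16 and 16.4 (log2 fold change -1.34, SE 0.14, adjusted p = 0.0092). Maff, Mafk and Mafa did not pass. Of these Maff was nearest, with 36.1, 32.5, 18 and 20.9 CPM and an adjusted p of 0.0612. Thus 1 of 9 tested genes of the Maf family and its partners was lower, Maf itself not counted, with a median of -0.11. Zeb2, a zinc finger repressor of effector cells, had 4.96 and 5 CPM against 0.346 and 0.0484, the latter from 7 and 1 counts (adjusted p = 0.0407). Of 27 tested effector transcription factors, 2 were lower, Zeb2 among them, and 0 were higher (median -0.17). In this list 13 of the 27 had an unadjusted p under 0.05. Gata3, with 457, 391, 463 and 728 CPM, and Tbx21, with 14.7, 19.6, 15.8 and 22.2 CPM, the defining factors of type 2 and type 1 cells, did not pass (adjusted p = 0.492 and 0.855). Without labelled wt 1 the calls of Mafg (adjusted p = 0.0921) and Zeb2 (0.176) ended, and that of Zeb2 ended without labelled flox 1 (0.106) too.

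Most identity genes of regulatory T cells did not pass the test. Foxp3, the lineage factor, had 93.8 and 91 CPM in the Maf-high libraries and 104 and 104 in the Maf-low libraries, a log2 fold change of 0.16 (SE 0.08, adjusted p = 0.472). Of the 20 tested genes of the core regulatory T cell list, 3 were lower and 0 higher, and the median was 0.05. In this list 8 had an unadjusted p under 0.05. Ctla4, the inhibitory receptor that binds CD80 and CD86, had 3342 and 3344 CPM against 1627 and 2080 (log2 fold change -0.85, SE 0.12, adjusted p = 0.027). Nt5e, the ectoenzyme CD73 that makes adenosine, had 1518 and 1374 CPM against 750 and 940 (log2 fold change -0.78, SE 0.12, adjusted p = 0.038). Itgb8, an integrin chain that helps to activate TGF-beta, had 77.8 and 70.5 CPM against 34.9 and 42 (log2 fold change -0.95, SE 0.13, adjusted p = 0.0256). For these genes the Maf-low library labelled wt 2 was the lowest of the 4 libraries. Each of these 3 calls ended without labelled wt 1 (adjusted p from 0.178 to 0.255) or without labelled flox 1 (0.0638 to 0.106). Il2ra, Ikzf2 and Tnfrsf18 did not pass, with adjusted p of 0.303, 0.945 and 0.869.

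Among effector and suppressor genes 3 of 20 tested were lower, Il10, Lag3 and Tigit, and 0 were higher, with a median of -0.60 and 11 members at an unadjusted p under 0.05. Lag3, an inhibitory receptor that binds MHC class II, had 67 and 54.3 CPM against 26.3 and 28.8 (log2 fold change -1.14, SE 0.14, adjusted p = 0.0187). Tigit, which binds CD155, had 142 and 139 CPM against 81.5 and 97.2 (log2 fold change -0.65, SE 0.11, adjusted p = 0.0436). Cd160, a receptor for HVEM, was higher, with 37.4 and 46.9 CPM against 72.3 and 78.9 (log2 fold change 0.84, SE 0.14, adjusted p = 0.0427). Icos, with 1183, 1323, 608 and 858 CPM, did not pass (adjusted p = 0.139). Of the 26 tested co-stimulatory and inhibitory receptors, 3 were lower (Ctla4, Lag3 and Tigit) and 1 higher (Cd160), with a median of -0.08. In this list 15 of the 26 had an unadjusted p under 0.05. The calls of Lag3, Tigit and Cd160 ended without labelled wt 1, at adjusted p of 0.124, 0.269 and 0.235, and those of Tigit and Cd160 also without labelled flox 1 (0.156 and 0.0534).

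Genes switched on by T cell receptor signals leaned to lower values in Maf-low: 4 of 20 tested were lower and 0 higher, with a median of -0.53. An unadjusted p under 0.05 was found for 14 of the 20, against 1767 of all 13021 tested genes. The highest log2 fold change in the list was 2.61, in a gene that was not called. Nr4a1, an orphan nuclear receptor induced by antigen signals, had 3934 and 3782 CPM in the Maf-high libraries against 1784 and 1828 in the Maf-low libraries. It fell by 1.09 on the log2 scale (SE 0.06, adjusted p = 0.00158), and was called without each library in turn. Egr2, a zinc finger factor of the same response, had 419 and 420 CPM against 223 and 257 (log2 fold change -0.80, adjusted p = 0.0149). Nfkbid, an atypical inhibitor of NF-kappaB known for its role in Foxp3 induction, had 942 and 1048 CPM against 467 and 559 (log2 fold change -0.96, adjusted p = 0.0143). Spry1, a feedback inhibitor of receptor signalling, had 174 and 125 CPM against 72.8 and 69.9 (log2 fold change -1.07, adjusted p = 0.0367). Calls ended without labelled wt 1 for Egr2 (adjusted p = 0.111), Nfkbid (0.0694) and Spry1 (0.0983), without labelled flox 1 for Egr2 (0.0645) and Nfkbid (0.0549), and without labelled wt 2 (0.16) or labelled flox 2 (0.181) for Spry1. Cd5, a surface receptor that dampens T cell receptor signals, had 569, 590, 751 and 792 CPM and did not pass (adjusted p = 0.0613).

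Fosl2, a subunit of AP-1, was the 1 called gene of 21 tested immediate early and heat shock genes, with 311 and 296 CPM against 123 and 148 (log2 fold change -1.16, SE 0.11, adjusted p = 0.00809, and 0.0607 without labelled wt 1), and the list median was -0.13. Summed over the list, the libraries had 24414, 24648, 17279 and 29156 CPM, with the Maf-low libraries on either side of the Maf-high libraries. Hspa1a, an inducible heat shock protein of the Hsp70 family, had 35.5, 80.9, 103 and 892 CPM, and Dnajb1, its co-chaperone, 215, 265, 271 and 831. The library labelled flox 2 was the highest for both, and the remaining Maf-low library was near the Maf-high libraries. Neither passed (adjusted p = 0.531 and 0.546). The part of the heat shock difference of this library in the other results was not tested.

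The larger part of the strongest losses lay outside these lists. Gbp2b, an interferon-inducible GTPase, had 130 and 116 CPM in the Maf-high libraries against 2.27 and 2.47 in the Maf-low libraries, a 52-fold difference (log2 fold change -5.70, SE 0.14, adjusted p = 6.94e-05). Gbp2, its neighbour on chromosome 3, had 111, 96.8, 136 and 139 CPM and did not pass (adjusted p = 0.125). Gbp10 and Gbp11 were called lower at adjusted p of 0.0121 and 0.0297, and GENCODE M21 annotates Gbp11 as a polymorphic pseudogene. Guanylate-binding proteins are closely related paralogs, so counts of Gbp2b, Gbp10 and Gbp11 depend on how reads that fit several copies were treated. The calls of Gbp10 and Gbp11 ended without labelled wt 1 (0.11 and 0.111) or labelled flox 1 (0.0526 and 0.106), and limma-voom did not call Gbp11. The list of interferon response genes holds none of Gbp2b, Gbp10 and Gbp11, nor Oas3 and Apol9b, which were called higher. Over its 22 tested members, 0 were called in either direction, 5 had an unadjusted p under 0.05, and the median was 0.17. The count covers this list only.

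Rnase4, a secreted ribonuclease, had 46.5 and 51.3 CPM against 3.16 and 1.69, a 20.1-fold difference (log2 fold change -4.33, SE 0.28, adjusted p = 0.00264). Its locus shares leader exons with Ang, which had 4.28, 3.52, 0.692 and 0.967 CPM, so reads of both genes may be mixed. Mmp9, a secreted protease that digests collagen, had 40.6 and 48.4 CPM against 3.26 and 1.64, 18.1-fold (log2 fold change -4.18, SE 0.31, adjusted p = 0.00423). Lgmn, the lysosomal protease legumain, had 42.7 and 44.3 CPM against 5.29 and 3.72 (log2 fold change -3.27, adjusted p = 0.00182). Ctsl and Ctsb, the proteases cathepsin L and B, were lower by 2.00 and 0.54 on the log2 scale (adjusted p = 0.00423 and 0.0379), and Grn, the precursor of granulins, by 1.37 (adjusted p = 0.00423). Prg4, the lubricating glycoprotein lubricin, had 152 and 136 CPM against 33.7 and 30.8 (adjusted p = 0.00107). All of these but Ctsb were called without each library in turn, and Ctsb lost its call without labelled wt 1 (0.337) or labelled flox 1 (0.0953).

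Other genes among the 15 with the largest losses have varied functions. Sccpdh, a protein related to saccharopine dehydrogenase, had 149 and 113 CPM against 6.63 and 10.3 (log2 fold change -3.96, SE 0.25). Pard6g, a cell polarity adaptor, had 247 and 183 CPM against 22.9 and 25.3 (log2 fold change -3.16, SE 0.17). In both of these the library pairs were separate by a wide margin in both labels. Podnl1, a leucine-rich repeat protein, had 57.4 and 53.9 CPM against 8.26 and 7.40, and Marcks, a substrate of protein kinase C that binds the membrane and actin, had 22.2 and 21.1 against 3.07 and 3.19. The adjusted p of these 4 genes ran from 0.00107 to 0.00423 (edgeR quasi-likelihood test), and each was called without each library in turn. Atp1b1, the beta subunit of the sodium pump, was lower by less, with 62.4 and 63.3 CPM against 29 and 19.6 (adjusted p = 0.027), a call that ended without labelled wt 1 (0.149) or labelled flox 1 (0.0904).

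**Figure D4:**
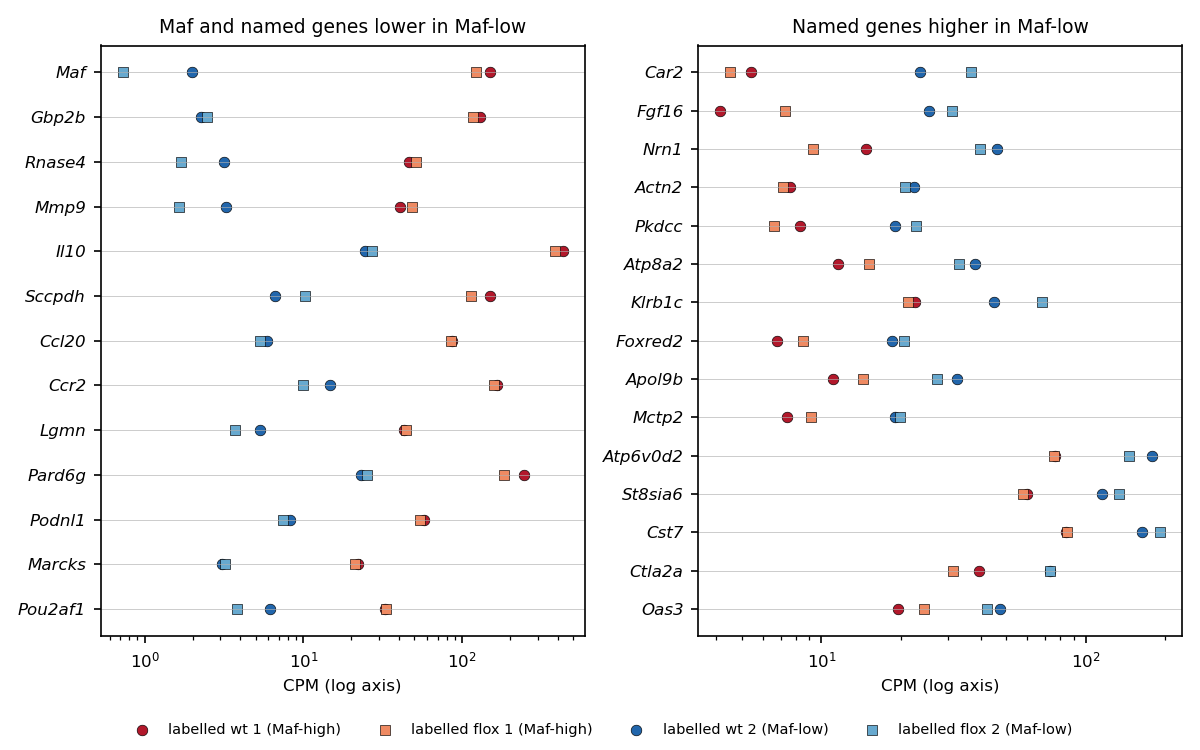
CPM on a log axis of Maf and named genes with the largest losses (left) and of named genes with the largest gains (right) in the Maf-low libraries, 1 point per library. Red and orange points are Maf-high, dark and light blue points Maf-low, circles are labelled wt and squares labelled flox. The Maf-high points of Il10, at 429 and 385 CPM, sit far to the right of its Maf-low points, at 24.5 and 26.8.

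Some genes were close to absent from the Maf-low libraries. Col16a1, a chain of a fibril-associated collagen, had 529 and 364 counts in the Maf-high libraries and 1 and 0 in the Maf-low libraries, a ratio of 520 in the labelled wt pair with a counting interval of 93 to 20585 (adjusted p = 0.00318). Gja1, the gap junction protein connexin 43, had 216 and 118 counts against 1 and 0 (adjusted p = 0.012). Gal, the neuropeptide galanin, had 72 and 52 counts and Lrrn4, a neuronal leucine-rich repeat protein, 35 and 81, and both had 0 in each Maf-low library. Against a floor of 3 counts per library, Gal was at least 19.2-fold and Lrrn4 at least 17.1-fold lower. Tph1, the enzyme that starts serotonin synthesis outside the brain, had 164 and 291 counts against 5 and 4 (adjusted p = 0.00497). Of the genes called, 2 were at 0 in both Maf-low libraries and 0 were at 0 in both Maf-high libraries. In limma-voom, Col16a1 and Gja1 did not pass. Calls ended without labelled wt 1 for Gja1 (0.0649), Gal (0.2) and Lrrn4 (0.111), and those of Gal (0.0534) and Lrrn4 (0.161) also ended without labelled flox 1. These genes were chosen for their low counts after their values were seen.

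Losses among TGF-beta and SMAD genes were Itgb8, described above, and Skil, an inhibitor of SMAD signalling, out of 22 tested, and 0 were higher (median -0.19). Skil had 546 and 503 CPM against 347 and 383 (log2 fold change -0.52, SE 0.09, adjusted p = 0.0488), and it did not pass without labelled wt 1 (0.375) or labelled flox 1 (0.155). Of 23 tested adhesion and homing genes, 1 was lower, Itgb8, and 0 were higher (median -0.02). Itgae, the CD103 chain that binds epithelial E-cadherin, had 568, 860, 1359 and 1561 CPM. Both Maf-low libraries were above both Maf-high libraries, but the spread within the groups left it uncalled (log2 fold change 1.03, adjusted p = 0.149). Of 30 tested cytokine receptors, Il23r and Il1r1 were lower and 0 higher (median -0.22).

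Gains named here are those of called genes with a mean log2 CPM of 3 or more. Larger gains at lower levels, such as that of Ccl1, lie outside this order. Car2, the cytosolic carbonic anhydrase II, had 5.40 and 4.51 CPM in the Maf-high libraries against 23.6 and 36.9 in the Maf-low libraries, a 6.11-fold difference (log2 fold change 2.61, SE 0.26, adjusted p = 0.00874). Fgf16, a fibroblast growth factor, had 4.13 and 7.25 CPM against 25.4 and 31.3, 4.98-fold (log2 fold change 2.31, SE 0.29, adjusted p = 0.0195). Nrn1, the membrane-anchored protein neuritin that is also present in anergic and regulatory T cells, had 14.8 and 9.26 CPM against 46.1 and 39.8 (log2 fold change 1.84, SE 0.24, adjusted p = 0.0218). The groups were separate in each case, and the lower group was at few CPM for Car2 and Fgf16. In an edgeR test against a minimum fold of 1.5, Car2 was still called, and Nrn1 and Fgf16 were not. Of the 15 named gains, Nrn1 was the 1 gene called without each library in turn. Car2 (0.0663) and Fgf16 (0.0607) did not pass without labelled wt 1.

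The next gains in that order included Actn2, an actin cross-linker, with 7.58 and 7.17 CPM against 22.4 and 20.7, and Pkdcc, a secreted kinase, with 8.31 and 6.64 against 19 and 22.8. Atp8a2, a lipid flippase, had 11.5 and 15.1 CPM against 38 and 33.1, and Atp6v0d2, a subunit of the proton pump of lysosomes, 76.8 and 76.2 against 179 and 146. St8sia6, a sialyltransferase, had 60.2 and 57.9 CPM against 116 and 134. In all of these the libraries within a group differed by less than the groups did, and the log2 fold changes lay between 1.08 and 1.55, with adjusted p from 0.00832 to 0.0264. Klrb1c and Cst7, also among the named gains, are described below with the cytotoxic and natural killer genes. Foxred2 (log2 fold change 1.35), Apol9b (1.23), Mctp2 (1.23), Ctla2a (1.04) and Oas3 (1.03) complete the other named gains, with adjusted p from 0.0218 to 0.038. Each of these 10 genes lost its call without labelled wt 1, where adjusted p ran from 0.0607 to 0.254. Of the 10, Actn2, Pkdcc, Foxred2, Apol9b, Mctp2, Ctla2a and Oas3 also lost it without labelled flox 1 (0.0526 to 0.112).

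Cytotoxic and natural killer genes had the highest median among the lists on T cell functions, 0.51 over 15 tested, yet 1 was higher, Cst7, and 1 lower, Srgn. Of the 15, 9 had an unadjusted p under 0.05, the same count as in the type 17 list. Cst7, the inhibitor of granule proteases cystatin F, had 84.2 and 84.7 CPM against 163 and 191 (log2 fold change 1.07, SE 0.10, adjusted p = 0.00832). Srgn, the proteoglycan serglycin that packs granules, had 1213 and 1208 CPM against 748 and 783 (log2 fold change -0.66, SE 0.07, adjusted p = 0.0107). Both calls ended without labelled wt 1 (adjusted p = 0.0755 and 0.133), and that of Srgn without labelled flox 1 (0.0821).

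Nkg7, a granule membrane protein of cytotoxic cells, had 12.7 and 31 CPM in the Maf-high libraries against 101 and 118 in the Maf-low libraries. Cd7, a surface protein of T and natural killer cells, had 16.3 and 34.8 CPM against 142 and 93.1. Both were higher in each Maf-low library than in either Maf-high library, but the Maf-high libraries differed among themselves. The log2 fold changes were 2.32 (SE 0.46, adjusted p = 0.157) for Nkg7 and 2.20 (SE 0.46, adjusted p = 0.169) for Cd7 in edgeR's quasi-likelihood test, so neither was called. Other tests differed. DESeq2 gave adjusted p of 0.00537 and 0.00799 and limma-voom 0.032 and 0.0479, and edgeR's likelihood ratio and exact tests also passed both. The quasi-likelihood test passed neither without robust fitting (0.058 and 0.063) or with the genotype label as replicate block (0.074 and 0.353). A minimum fold of 1.5 in edgeR gave 0.50 and 0.56. Leaving out 1 library gave log2 fold changes from 1.82 to 3.10 for Nkg7 and from 1.76 to 2.85 for Cd7. Gzma, the protease granzyme A, had 48.5, 221, 420 and 210 CPM, with overlapping groups and the lowest value in labelled wt 1.

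Klrb1c, the receptor NK1.1, was the 1 called gene of 10 tested CD8 T and natural killer markers, with 22.6 and 21.3 CPM against 44.9 and 68.5 (log2 fold change 1.37, SE 0.21, adjusted p = 0.0368). The call ended without labelled wt 1 (0.227) or labelled flox 1 (0.194). Summed over the 10 markers, the libraries had 60.2 and 67.6 CPM against 94 and 121, higher in both Maf-low libraries (median log2 fold change 0.23). Klrb1c made up much of these sums. The defining markers Cd8a and Cd8b1 were not higher in Maf-low, with 8.56, 11, 5.19 and 9.19 CPM and 12.7, 16.6, 17.1 and 12.1 CPM. Ncr1 had 1, 3, 0 and 0 counts and Klra7 had 0 counts in every library. Over the 10 markers, log2 fold changes ran from -0.45 to 2.59, the highest in an uncalled gene other than Klrb1c. The part of such cells in the values of Nkg7, Cd7 and the cytotoxic genes was not tested.

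Type 1 genes were divided, with 2 of 20 tested lower, Ccr2 among them, and 1 higher (Cxcr3), and a median of 0.14. Ifng, the cytokine of type 1 cells, had 4.28, 5.37, 6.08 and 20.7 CPM and did not pass (adjusted p = 0.395). Its high value came from labelled flox 2 alone. No gene was called among 15 tested type 2 and tissue repair genes (median -0.08), 17 resting and central memory genes (median -0.18) or 28 cell cycle genes (median 0.07). At an unadjusted p under 0.05 these lists held 2, 7 and 4 genes. Foxo1, a factor of resting T cells, had 691, 688, 558 and 543 CPM (adjusted p = 0.103), and Mki67, the proliferation marker, 23.1, 21.9, 36.1 and 28.4 CPM (adjusted p = 0.224).

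Markers of cells outside the sort were called in 2 cases only, Klrb1c and Il23r. There were 0 calls among 15 myeloid and dendritic markers (median -0.07), 19 epithelial markers (median 0.27), 7 conventional CD4 T cell markers (median 0.09), 6 stromal and endothelial markers (median -0.21), 4 sex-linked genes and the 1 tested red cell marker, Alas2. The myeloid markers differed within the Maf-high group. Csf1r, the receptor of CSF1, had 0 counts in labelled wt 1 and 152, 69 and 71 in labelled flox 1, wt 2 and flox 2, and C1qa, a complement component of macrophages, had 3, 131, 56 and 52. The sums of these lists overlapped between Maf-high and Maf-low, except for Alas2, which had 1.51, 3.81, 0.989 and 0.145 CPM, and their part in the called genes was not tested.

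**Figure D5:**
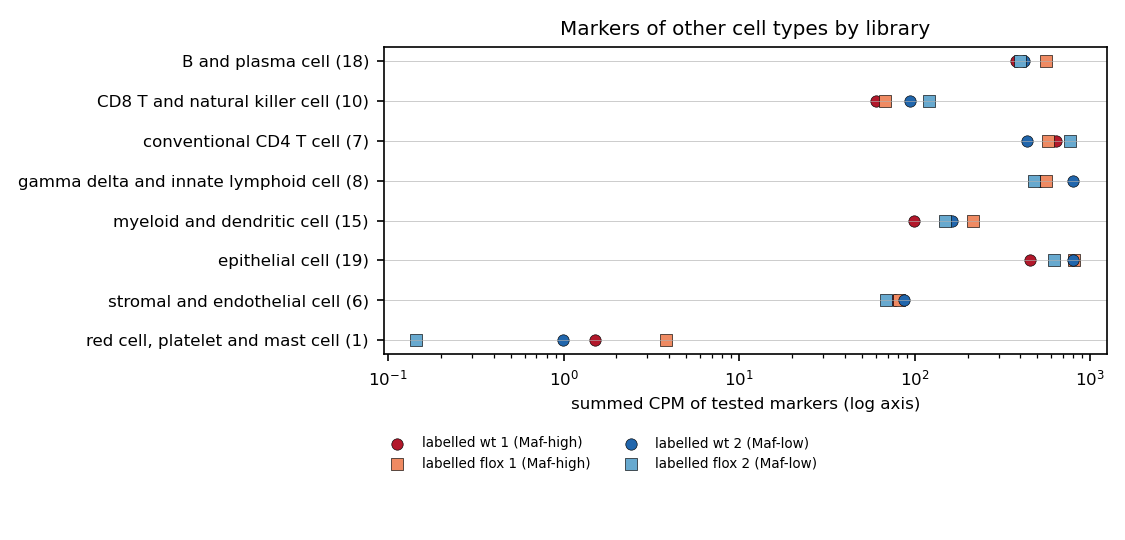
Summed CPM (log axis) of the tested markers of 8 other cell types or groups of types, 1 point per library, with the number of tested markers in brackets. Red and orange points are Maf-high and blue points Maf-low. The CD8 T and natural killer markers, at 60.2 and 67.6 against 94 and 121 CPM, do not overlap, while the B cell, myeloid and epithelial sums do.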

How the data were processed

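There were 4 RNA libraries. The labels' protocols name Trizol, spin columns and a library kit for very small inputs. Tools named in the submitters' processing notes are TopHat2 2.1.1, HTSeq 0.6.1 and edgeR 3.14, on build mm10. How they were set, which annotation was counted and whether strand was used is not given in the sources used here, so overlapping and antisense genes cannot be told apart. The authors deposited raw counts per gene symbol (24061 gene rows), the values tested here. The 5 counter summary rows, 66.6% to 67.2% of each column, were left out. The authors also deposited a normalized signal for 10618 genes, used only to find the grouping behind it. A few genes are not reported here. In 27 rows the symbol had become a date, and these are not named.

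The test was edgeR 4.0.16 (R 4.3.3) on these counts: filterByExpr (13022 genes), TMM scaling, glmQLFit (robust) and glmQLFTest, Maf-low minus Maf-high, with Benjamini-Hochberg adjustment over all tested genes and a threshold of 0.05. Adjusted p-values without another name come from this test. Standard errors are log2 fold changes over the square root of F. CPM use TMM library sizes. The smallest two-sided p of an exact permutation test of 2 against 2 is 0.333, so none was run. A floor of 3 counts corresponds to 0.123 to 0.148 CPM. Intervals are exact at 95% and cover counting error only. The code of the test was run on simulated counts with known changes, drawn from the means and dispersions of these same libraries. That run checks the code and not the calls made here.

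Groups follow the number in the titles, which coincides with Maf. The groups, the 29 gene lists and the named genes were chosen with earlier results of these data known. Genes named are Maf, Il10, Ccl20, Ccr2, Nkg7, Cd7 and Foxp3. The rule adds the 15 called genes per direction with the largest change, a mean log2 CPM of 3 or more and groups that do not overlap. It further adds up to 4 called members per list by smallest p, or up to 2 members where none was called, and up to 3 abundant or defining members of a list. Other genes, among them Ackr3, Ascl2, Il1rn, Tox2, Angptl2, Ccl1, Ctsl, Ctsb, Grn, Prg4, Atp1b1, Gbp10, Gbp11 and the genes nearly absent from Maf-low, were named after their values were seen. Coordinates and gene names came from GENCODE M21 on the same build, in which 94.4% of gene rows had their symbol. Alternatives were DESeq2 1.42.0, limma-voom (limma 3.58.1), other edgeR tests, scalings and filters, leaving out each library, the genotype label as replicate block and glmTreat at 1.5-fold.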

Additional observations from a re-analysis of the deposited data

How the results depend on the processing

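No called gene changed sign in any alternative, and 35 of the 235 were called under all of them. Those called under all of them were lower in Maf-low without exception. The count of called genes, with those lower and higher in Maf-low, was 605 (422 and 183) with DESeq2, 607 (421 and 186) with edgeR's likelihood ratio test, 622 (430 and 192) with its exact test, 588 (402 and 186) with no filter on low counts and 59 (56 and 3) with a minimum fold of 1.5. Without 1 library the count ran from 45 to 524, with 40 to 400 lower and 5 to 173 higher. Other scalings, limma-voom, fitting without the robust option and a filter at 1 CPM gave 194 to 247. Of the 54 called genes that the naming rule gives, a minimum fold of 1.5 ended 34 calls. The fit by limma-voom and the fit without the robust option each ended 8, among them Zeb2, Tigit, Cxcr3, Tnfsf10, Il1r1 and Skil under both. Mpeg1, a myeloid marker that was not called, reversed without labelled wt 2 (log2 fold change -0.048) and had values up to 1.44 without another library. With the labelled genotype as replicate block, 211 genes were called (162 lower and 49 higher), of which 187 were also called without it. Deviations from the group mean in the 2 labelled wt libraries had a Pearson's r of 0.07 across 9081 genes. The replicate number coincides with the labelled genotype, so what libraries share under either cannot be told apart. The cause of the differences between the alternatives was not tested. Of the called genes, 47 had a mean log2 CPM under 3.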

Other observations

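Some further genes were called lower in Maf-low. Igf1r, the receptor of insulin-like growth factor 1, had 73 and 66.2 CPM in the Maf-high libraries against 28.8 and 31.6 in the Maf-low libraries (edgeR quasi-likelihood test, adjusted p = 0.00832). Vdr, the vitamin D receptor, had 29.7 and 28.1 CPM against 6.08 and 10.8 (adjusted p = 0.038), and Rara, a retinoic acid receptor, 72.9 and 71.2 against 48.6 and 45.9 (adjusted p = 0.0429). Cyp26b1, an enzyme that degrades retinoic acid, had 10.2 and 7.41 CPM against 0.939 and 1.21 (adjusted p = 0.017). The groups were separate for each of them. Jak2, a kinase of cytokine receptors, had 550 and 558 CPM against 309 and 290 (adjusted p = 0.00647), and Malt1, a protease of the NF-kappaB pathway, 369 and 315 against 157 and 171 (adjusted p = 0.00874). Each of these calls ended without labelled wt 1 (adjusted p from 0.063 to 0.328), and those of Vdr (0.12) and Rara (0.2) also without labelled flox 1. These genes were picked after their values were seen.

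Some further genes were called higher in Maf-low. Ms4a4b, a membrane protein of T cells, had 419 and 390 CPM in the Maf-high libraries against 697 and 658 in the Maf-low libraries (log2 fold change 0.74, adjusted p = 0.0115). Txnip, an inhibitor of glucose uptake and thioredoxin, had 285 and 303 CPM against 451 and 450 (adjusted p = 0.0189). Cybb, a subunit of the phagocyte NADPH oxidase, had 148 and 139 CPM against 297 and 249 (adjusted p = 0.0148), and Axl, a receptor tyrosine kinase that binds GAS6, 161 and 153 against 243 and 223 (adjusted p = 0.0351). All 4 calls ended without labelled wt 1 (0.0972 to 0.218) or labelled flox 1 (0.069 to 0.212). They too were picked after their values were seen.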
